A study of Mus musculus with 10 samples.

Results

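Acute phase proteins are plasma proteins that the liver makes in larger amounts during inflammation, and 10 of the 29657 genes in the deposited table were taken as this family by gene symbol: Saa1, Saa2, Saa3, Orm1, Orm2, Hp, Hpx, Apcs, Lcn2 and Serpina3n. All 10 were found once and all 10 passed the filter on low values. They were measured by bulk RNA-seq in 10 liver samples of C57BL/6 mice, all fed CDAHFD, a choline-deficient, amino acid-defined diet high in fat, for 8 weeks. The control group of 5 samples, labelled wild type, received AAV8-NC. The other group of 5 samples received AAV8-TBG-galectin-3 and is labelled a knockdown of galectin-3 in hepatocytes, the cell type in which the TBG promoter is active. Both groups thus had a vector and the diet, and the age and sex of the mice, and whether each sample came from a separate mouse, are not given in the sources used here. If samples shared a mouse, the p-values would measure technical spread as well. The targeted gene, Lgals3, averaged 70.8 ± 22.9 FPKM among controls and 74.2 ± 20.1 FPKM in the other group (SD, n = 5 each; limma adjusted p = 0.856), so that group is called labelled knockdown, and all directions rest on the labels. The vector name does not say whether the construct silences or expresses galectin-3.

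In an acute phase response, interleukin-6 reaches hepatocytes through its receptor and the shared subunit gp130 and activates the transcription factor STAT3, while interleukin-1 and tumour necrosis factor act through NF-kB, and C/EBP factors act on many of the same promoters. Serum amyloid A proteins travel on lipoproteins, the orosomucoids bind drugs and lipids, haptoglobin and hemopexin capture free haemoglobin and heme, and lipocalin 2 withholds iron carriers from bacteria. In mice, serum amyloid P, encoded by Apcs, is a main acute phase protein, whereas C-reactive protein is a minor one.

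The family did not move in 1 direction. Hp and Saa3 were higher and Serpina3n was lower in the labelled knockdown livers at a limma adjusted p under 0.05, and the other 7 members did not pass. Among all 13471 tested genes, 7.13% were called higher and 9.65% lower, or 16.8% in either direction. The 3 called members of 10 stand beside that background, and with so few members the shares are a description only. With no FPKM minimum none of the 3 passed, at limma adjusted p of 0.216 for Hp, 0.107 for Saa3 and 0.0916 for Serpina3n. The median log2 fold change of the 10 members was -0.08, against -0.04 over all tested genes, with 3 members above 0 and 7 below. In bulk liver, fewer cells of a type and less RNA per cell cannot be told apart. FPKM scales fragments to transcript length and library size, and fold changes are labelled knockdown against control on the log2(FPKM + 1) scale.

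**Figure D1:**
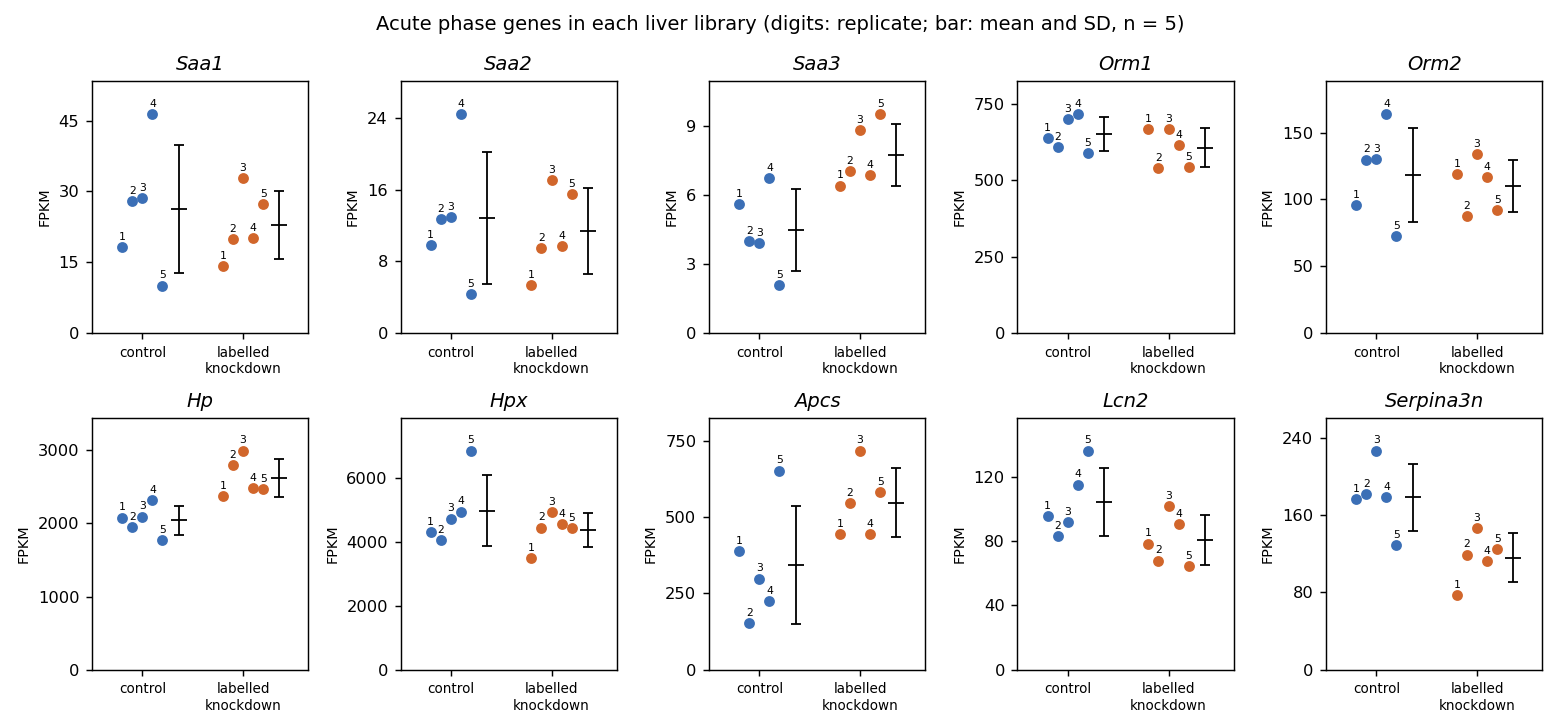
FPKM of the 10 acute phase genes in each library, on linear axes from 0, with control in blue and labelled knockdown in orange. Digits give the replicate and bars the mean and SD of 5 libraries. Hp is the single gene whose groups do not overlap.

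By level, Hpx stood highest, at a mean of 4677 FPKM over the 10 libraries, followed by Hp at 2331 and Orm1 at 628. Apcs at 445, Serpina3n at 147, Orm2 at 114 and Lcn2 at 92.4 FPKM formed the middle. Saa1 at 24.6, Saa2 at 12.1 and Saa3 at 6.09 FPKM were lowest. Hpx exceeded Hp, Hp exceeded Orm1, Lcn2 exceeded Saa1 and Saa1 exceeded Saa2 in 10 of 10 libraries. Orm1 exceeded Apcs in 6 of 10 libraries, so that pair has no stable order. Serpina3n exceeded Orm2 in 8 of 10, and the remaining neighbours kept their order in 9 of 10.

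The serum amyloid A genes split. Saa1 and Saa2, the inducible forms made by hepatocytes, were not called, while Saa3, which in mice is also made by macrophages and fat cells, was higher in the labelled knockdown livers. Saa1 and Saa2 varied together from liver to liver. With group means taken out, Saa3 varied with them too (Pearson r = 0.80 and 0.85). Over the 10 libraries as they stand, r was 0.50 and 0.54, which did not pass. The promoters of the 3 genes are shown because Saa3 was the one of the 3 called between the groups. They are the 250 bases before the start site from RefSeq, build GRCm38.p6, 5′ to 3′ on the strand of the gene. Capitals mark the matches to the C/EBP core TTGCNNAA on either strand.
Saa1: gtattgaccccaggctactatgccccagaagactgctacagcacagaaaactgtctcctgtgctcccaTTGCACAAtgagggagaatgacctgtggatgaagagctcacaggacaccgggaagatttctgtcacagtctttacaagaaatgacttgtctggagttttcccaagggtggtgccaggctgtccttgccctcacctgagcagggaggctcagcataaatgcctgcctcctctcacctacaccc
Saa2: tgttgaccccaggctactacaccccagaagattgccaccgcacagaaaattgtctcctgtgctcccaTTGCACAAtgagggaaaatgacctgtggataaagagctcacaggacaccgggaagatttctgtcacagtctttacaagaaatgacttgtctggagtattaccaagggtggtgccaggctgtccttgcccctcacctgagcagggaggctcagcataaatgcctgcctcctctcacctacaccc
Saa3: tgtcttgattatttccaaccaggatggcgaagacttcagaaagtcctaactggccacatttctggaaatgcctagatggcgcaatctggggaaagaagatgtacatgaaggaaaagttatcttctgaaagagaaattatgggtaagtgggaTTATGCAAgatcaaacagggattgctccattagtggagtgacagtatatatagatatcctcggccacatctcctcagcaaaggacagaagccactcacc
The stretches are chr7:46742981-46743230 (minus strand), chr7:46751583-46751832 (plus strand) and chr7:46715677-46715926 (minus strand). Saa1 and Saa2 were identical at 238 of 251 aligned positions, or 94.8%, and Saa1 and Saa3 at 47.1%. The transcripts of Saa1 and Saa2 (first numbered transcript of each in GENCODE M21) were identical at 93.9% of aligned positions, and 13.2% of the 50-base windows of Saa1 also occur in Saa2. Reads from such windows cannot be assigned to 1 of the genes by sequence, so the split between Saa1 and Saa2 is uncertain.

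Saa1 (ENSMUSG00000074115) stood at 18.3, 28.0, 28.7, 46.4 and 10.03 FPKM in control libraries 1 to 5 and at 14.2, 19.8, 32.8, 20.1 and 27.3 FPKM in labelled knockdown libraries 1 to 5. The controls spread more widely than the labelled knockdown libraries and enclosed all of them. Saa1 averaged 26.3 ± 13.6 FPKM in controls and 22.8 ± 7.23 FPKM in the labelled knockdown livers (log2 change -0.09 with SE 0.34; adjusted p = 0.879 by limma), and the 95% interval of the fold ran from 0.561 to 1.58. The interval includes both a fall and a rise, so these samples give no direction for Saa1. Saa2 (ENSMUSG00000057465) stood at 9.85, 12.7, 12.9, 24.5 and 4.33 FPKM in the controls and at 5.36, 9.48, 17.1, 9.66 and 15.5 FPKM in the labelled knockdown libraries. Control 4 was again the highest and control 5 the lowest of the 10. The log2 fold change of Saa2 was -0.08 (SE 0.38, limma adjusted p = 0.900), with an interval of the fold from 0.531 to 1.68. Both signs turned to above 0 without control 4 or without labelled knockdown 1, with values for Saa1 of 0.15 and 0.06 and for Saa2 of 0.18 and 0.14.

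Saa3 (ENSMUSG00000040026) stood at 5.596, 3.995, 3.89, 6.73 and 2.09 FPKM in control libraries 1 to 5 and at 6.39, 7.01, 8.79, 6.86 and 9.50 FPKM in labelled knockdown libraries 1 to 5. Of the labelled knockdown libraries, 4 lay above every control, and only control 4 reached above labelled knockdown 1. Saa3 rose from 4.46 ± 1.78 to 7.71 ± 1.35 FPKM (log2 change 0.73 with SE 0.21; adjusted p = 0.0386 by limma), above the control mean in 5 of 5 libraries. The adjusted p passed 0.05 without control 2 or 3 (0.0810 and 0.0799) and without labelled knockdown 1, 2, 3 or 5 (0.0556, 0.0597, 0.0807 and 0.0832), while the log2 fold change stayed between 0.54 and 0.87 in the 10 fits that each leave out 1 library (leave-one-out fits). Of 13 tested macrophage markers 2 were lower and 0 higher, beside 9.65% and 7.13% of all tested genes, and 11 had a log2 fold change below 0, beside 7495 of all 13471. Their summed level ran from 451 to 790 (789.7) FPKM in controls and from 303 to 600 (600.2) FPKM in labelled knockdown libraries. Labelled knockdown 5, with the highest Saa3, was the lowest of the 10 libraries for 7 of the 13, and labelled knockdown 1 for 5. The part of these markers in the Saa3 result was not tested.

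Within a library, the ratio of Saa2 to Saa1 was not called different between the groups. Because the genes share sequence windows, this ratio may depend on how shared reads were assigned. It ran from 0.432 to 0.539 in controls and from 0.377 to 0.568 in labelled knockdown libraries, and its difference on the log2 scale was 0.005 (exact two-sided permutation p = 0.968, adjusted over 4 ratios 0.968). The ratio of Saa3 to Saa1 ran from 0.136 to 0.306 in controls and from 0.268 to 0.449 in the labelled knockdown libraries. Control 1 lay inside the labelled knockdown range and the other controls below it. The difference was 0.96 on the log2 scale (exact permutation p = 0.0159, adjusted 0.0317), above the control mean in 5 of 5 libraries, and the adjusted p was 0.0635 without labelled knockdown 1.

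Haptoglobin and hemopexin, both scavengers of blood-derived iron compounds, did not keep their proportion. Hp (ENSMUSG00000031722) stood at 2077, 1949, 2091, 2316 and 1772 FPKM in control libraries 1 to 5 and at 2373, 2792, 2993, 2482 and 2468 FPKM in labelled knockdown libraries 1 to 5. Every labelled knockdown library lay above every control, which held for 5.66% of tested genes in that direction and for 13.1% in either direction. Hp rose from 2041 ± 200.02 to 2622 ± 261 FPKM (log2 change 0.36 with SE 0.11; adjusted p = 0.0460 by limma), a change of 1.28-fold with a 95% interval from 1.09 to 1.52. Its margin to the threshold was small: the adjusted p was 0.0737, 0.106, 0.0851 and 0.0660 without control 1, 2, 3 or 5, and 0.0957, 0.105, 0.0549 and 0.0668 without labelled knockdown 2, 3, 4 or 5. Scaling changed the call too, with an adjusted p of 0.0526 after median-of-ratios scaling and 0.290 (log2 fold change 0.19) after quantile normalization.

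Hpx (ENSMUSG00000030895) stood at 4297, 4045, 4729, 4948 and 6858 FPKM in the controls and at 3496, 4451, 4936, 4567 and 4443 FPKM in the labelled knockdown libraries. Control 5 was far above all others, and labelled knockdown 1 was the lowest. The difference was not called (log2 change -0.17 with SE 0.16; adjusted p = 0.488 by limma), with an interval of the fold from 0.6995 to 1.13. Without control 5 it was -0.05. The ratio of Hp to Hpx was 0.483, 0.482, 0.442, 0.468 and 0.258 in control libraries 1 to 5 and 0.679, 0.627, 0.606, 0.543 and 0.555 in labelled knockdown libraries 1 to 5. The groups did not overlap. The ratio was 1.44-fold higher (log2 difference 0.53; an exact two-sided permutation test gave p = 0.00794, the lowest that 5 against 5 allow, or 0.0317 adjusted over 4 ratios) in the labelled knockdown livers, or 0.36 on the log2 scale without control 5 (adjusted p = 0.0317). Without labelled knockdown 1 the difference was 0.48 and the adjusted p 0.0635. The longest annotated transcripts of Hp and Hpx are 1345 and 1499 bases long, and the part of transcript length in the ratio was not tested.

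**Figure D2:**
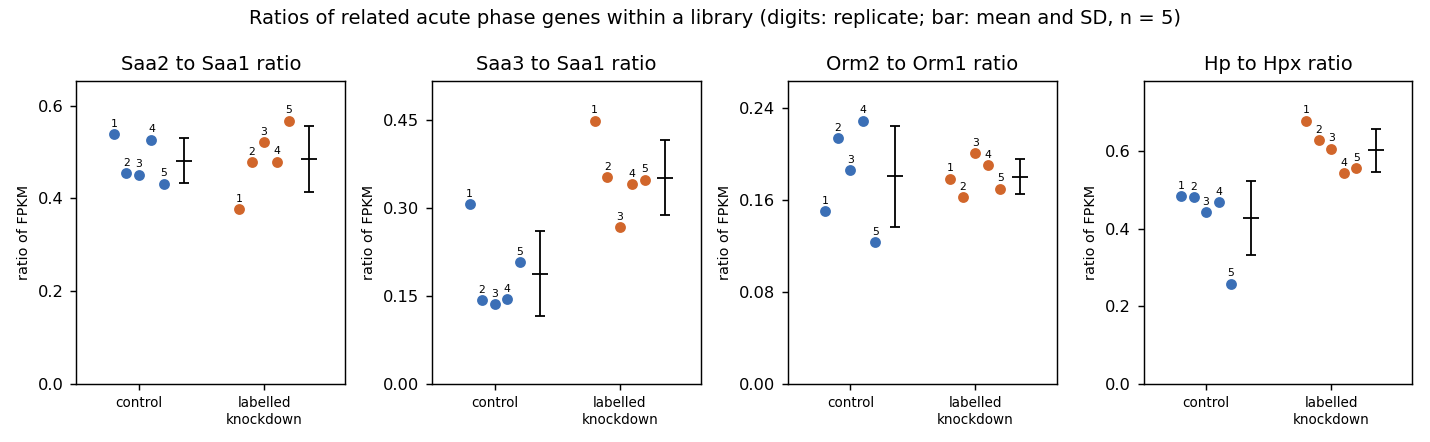
Ratio of FPKM of 2 related genes within each library for Saa2 to Saa1, Saa3 to Saa1, Orm2 to Orm1 and Hp to Hpx, with control in blue, labelled knockdown in orange, replicate numbers as digits and bars for the mean and SD of 5 libraries. The groups separate for Hp to Hpx, nearly separate for Saa3 to Saa1, and overlap in the other panels.

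The orosomucoid genes were not called. Orm1 (ENSMUSG00000039196) stood at 638, 607, 699.6, 716 and 588 FPKM in control libraries 1 to 5 and at 667, 539, 667, 614.5 and 542 FPKM in labelled knockdown libraries 1 to 5. Its spread was the smallest of the family together with that of Hp, with a coefficient of variation of 8.63% in controls and 10.5% in the other group. The log2 fold change of Orm1 was -0.10 (SE 0.10, limma adjusted p = 0.503), with an interval of the fold from 0.799 to 1.09. Orm2 (ENSMUSG00000061540) stood at 96.0, 129.8, 130.1, 164 and 72.6 FPKM in controls and at 119, 87.4, 134, 117 and 92.1 FPKM in labelled knockdown libraries. The controls held both the highest and the lowest value, and the log2 fold change was -0.07 (SE 0.20, limma adjusted p = 0.828), with an interval of the fold from 0.699 to 1.29. Its sign turned without control 4 (0.06) and without labelled knockdown 2 (0.004). The ratio of Orm2 to Orm1 differed by 0.03 on the log2 scale (exact permutation p = 0.865, adjusted 0.968). The transcripts of Orm1 and Orm2 were identical at 91.0% of aligned positions and shared 20.4% of their 50-base windows, so their split is uncertain. Orm3, the third gene of the cluster, was at 6.02 ± 3.00 FPKM in controls and 7.17 ± 2.33 FPKM in the labelled knockdown livers (limma adjusted p = 0.532).

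Apcs (ENSMUSG00000026542) was higher on average without passing the test. It stood at 389, 154, 298, 224 and 652 FPKM in control libraries 1 to 5 and at 443, 545, 717, 444 and 581 FPKM in labelled knockdown libraries 1 to 5. Of the controls, 4 lay below every labelled knockdown library, and control 5 lay above 4 of those 5. Apcs averaged 343 ± 193 FPKM in controls and 546 ± 113 FPKM in the other group (log2 change 0.82 with SE 0.32; adjusted p = 0.0975 by limma), with an interval of the fold from 1.09 to 2.86 before adjustment over all genes. Without control 5 the log2 fold change was 1.09 and the adjusted p 0.0190. With array weights, which give less weight to divergent libraries, they were 1.18 and 0.0136. In the other 10 alternative settings and the other 9 leave-one-out fits it did not pass.

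Lcn2 (ENSMUSG00000026822) stood at 95.6, 83.2, 91.7, 115 and 136 FPKM in control libraries 1 to 5 and at 78.4, 67.8, 102 (101.6), 90.3 and 64.5 FPKM in labelled knockdown libraries 1 to 5. The groups overlapped, with labelled knockdown 3 above 3 controls. The difference was not called (log2 change -0.37 with SE 0.16; adjusted p = 0.124 by limma), with an interval of the fold from 0.611 to 0.983 before adjustment over all genes. Lcn2 is made by neutrophils as well as by hepatocytes. Of 14 neutrophil markers, 4 passed the filter and 0 were called, 6 averaged under 0.1 FPKM, and the granule genes Ngp, Camp and Ltf stood at 0.0826, 0.145 and 0.0240 FPKM in controls and 0.0871, 0.0705 and 0.0142 FPKM in the other group. The 4 tested markers averaged, in controls and the other group, 1.59 and 1.83 FPKM (S100a8), 4.24 and 5.51 (S100a9), 2.59 and 2.46 (Csf3r) and 1.45 and 0.971 (Fpr1). Of these 4, 2 had a log2 fold change above 0 and 2 below. The summed level of the neutrophil list ran from 9.15 to 13.9 FPKM in controls and from 7.71 to 14.9 FPKM in labelled knockdown libraries.

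Serpina3n (ENSMUSG00000021091), a secreted inhibitor of serine proteases, was the single member called lower. It stood at 177, 182, 227, 179 and 129 FPKM in control libraries 1 to 5 and at 77.1, 119, 146, 113 and 125 FPKM in labelled knockdown libraries 1 to 5. Control 5 lay inside the labelled knockdown range, and the other controls lay above it. Serpina3n fell from 179 ± 34.6 to 116 ± 25.2 FPKM (log2 change -0.63 with SE 0.18; adjusted p = 0.0350 by limma), with 5 of 5 libraries under the mean of the controls. The adjusted p was 0.0587, 0.0739, 0.0791 and 0.0663 without control 1, 2, 3 or 4, and 0.0586, 0.0565 and 0.0548 without labelled knockdown 1, 2 or 5. After median-of-ratios scaling it was 0.0638. Serpina3k and Serpina3m, neighbours in the same gene cluster that are also made in liver, did not pass (limma adjusted p = 0.594 and 0.403); 0.893% of the 50-base windows of Serpina3n occur in Serpina3m and 0% in Serpina3k.

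**Figure D3:**
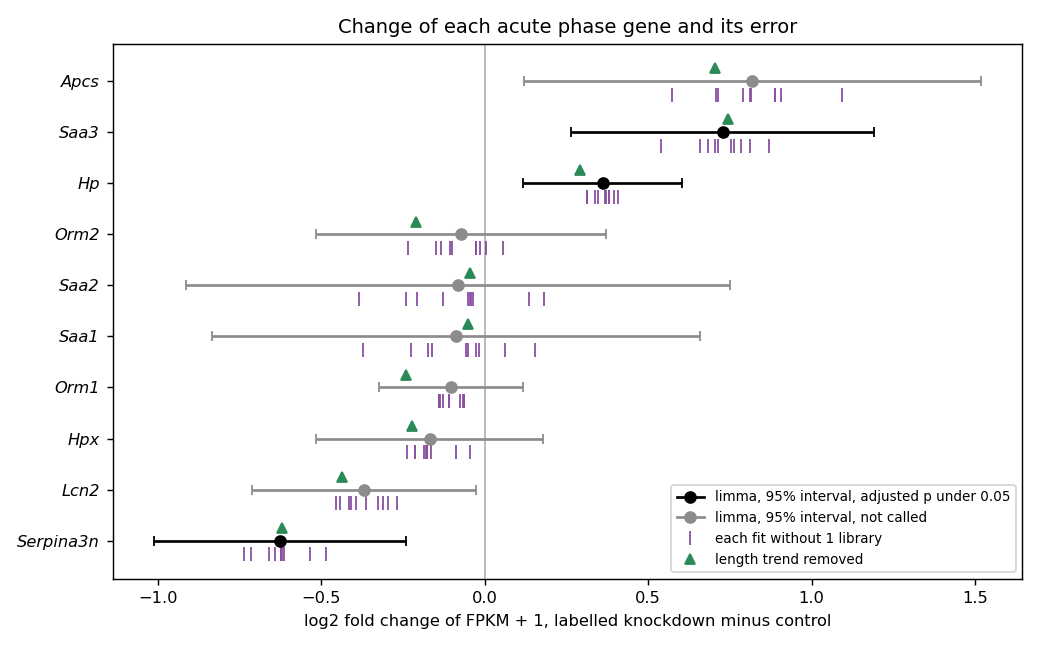
Log2 fold change of each acute phase gene (circle) with its 95% limma interval, black where called. Ticks are the 10 leave-one-out fits and triangles the fit with the length trend removed. The fits of Saa1, Saa2 and Orm2 fall on both sides of 0, and the other 7 members, called or not, keep 1 sign in every fit drawn. The 95% intervals of Saa1, Saa2, Orm2, Orm1 and Hpx include 0.

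Of the 10 members, 8 had a RefSeq promoter entry; Hp and Orm1 had none. The C/EBP core TTGCNNAA occurred in 6 of the 8 windows of 250 bases, where 9.56% of 32851 promoters hold it on either strand. Among the 6 are Saa1 and Saa2, which hold the same match in windows identical at 94.8% of aligned positions, so these are not separate cases. The kappaB core, with T at its centre, occurred in 1 of 8, against 1.41% of all promoters, and that was Serpina3n. The STAT palindrome TTCNNNGAA and the type II interleukin-6 response element CTGGGAA each occurred in 1 of 8, against 7.02% and 9.10% of all, and both were in Apcs. A looser kappaB core, with any bases at its centre, was in 4 of 8 and in 45.8% of all promoters, overlaps the stricter one, and is not marked. The Serpina3n and Apcs windows are shown because no other of the 8 held these motifs; capitals mark the kappaB core in Serpina3n and the STAT palindrome and interleukin-6 elements in Apcs.
Serpina3n: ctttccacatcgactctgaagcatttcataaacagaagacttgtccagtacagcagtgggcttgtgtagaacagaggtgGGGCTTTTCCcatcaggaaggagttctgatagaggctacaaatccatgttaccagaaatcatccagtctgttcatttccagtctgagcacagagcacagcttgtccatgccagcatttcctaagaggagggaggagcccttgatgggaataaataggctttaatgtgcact
Apcs: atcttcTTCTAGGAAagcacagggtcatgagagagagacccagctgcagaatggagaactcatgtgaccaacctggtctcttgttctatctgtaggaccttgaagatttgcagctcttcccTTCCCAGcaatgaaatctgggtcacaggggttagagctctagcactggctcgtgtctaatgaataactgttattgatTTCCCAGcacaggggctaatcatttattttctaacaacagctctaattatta
They lie at chr12:104406458-104406707 (plus strand) and chr1:172895055-172895304 (minus strand) of GRCm38.p6. A match describes letters only, and binding was not measured.

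The members did not vary as 1 block between livers. Control 5 was the lowest of the 10 libraries for 5 members (Saa1, Saa2, Saa3, Orm2 and Hp) and the highest for Lcn2 and Hpx. Control 4 was the highest for Saa1, Saa2, Orm1 and Orm2. Of the 45 pairs of members, 2 passed a permutation test of Pearson r over the 10 libraries, adjusted over the pairs, and 3 passed by Spearman rho, the third being Orm1 with Orm2. Saa1 and Saa2 gave Pearson r = 0.98 (permutation p = 1e-05, the smallest that 100000 resamples can give, adjusted 0.00045) and Spearman rho = 0.93 (p = 0.00037), and r was 0.95 without the 2 libraries farthest from the median of Saa1. It was 0.99 within each group of 5. Saa1 and Saa2, like Orm1 and Orm2, share sequence windows, and the part of shared reads in these correlations was not tested. Saa3 gave r = 0.50 with Saa1 and 0.54 with Saa2, which did not pass, and 0.80 and 0.85 with group means taken out. Without the 2 libraries farthest from the median of Saa1 or of Saa2, these r of 0.50 and 0.54 became -0.005 and 0.17. Saa3 and Hp gave r = 0.87 (permutation p = 0.00073, adjusted 0.0164) and rho = 0.88 (p = 0.00173), and 0.80 without the 2 farthest libraries. Both of these genes differ between the groups, and with group means taken out r was 0.70, at 0.93 in controls and 0.35 in the labelled knockdown livers. Orm1 and Orm2 gave r = 0.77 (permutation p = 0.00934, adjusted 0.105) and rho = 0.87 (p = 0.00208, adjusted 0.0312). The genes outside the family whose values ran most closely with the mean standardized value of the 10 members were Ccl4 (r = 0.90 over 10 libraries), Gcat (0.88), Ifi47 (0.84), Psmb4 (0.83) and Gas1 (0.82). With group means taken out they were Ccl4 (0.91), Ifi47 (0.91), Eef1a2 (0.90), Gcat (0.89) and Gbp2 (0.87). These were the highest of all tested genes and are given as a description.

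**Figure D4:**
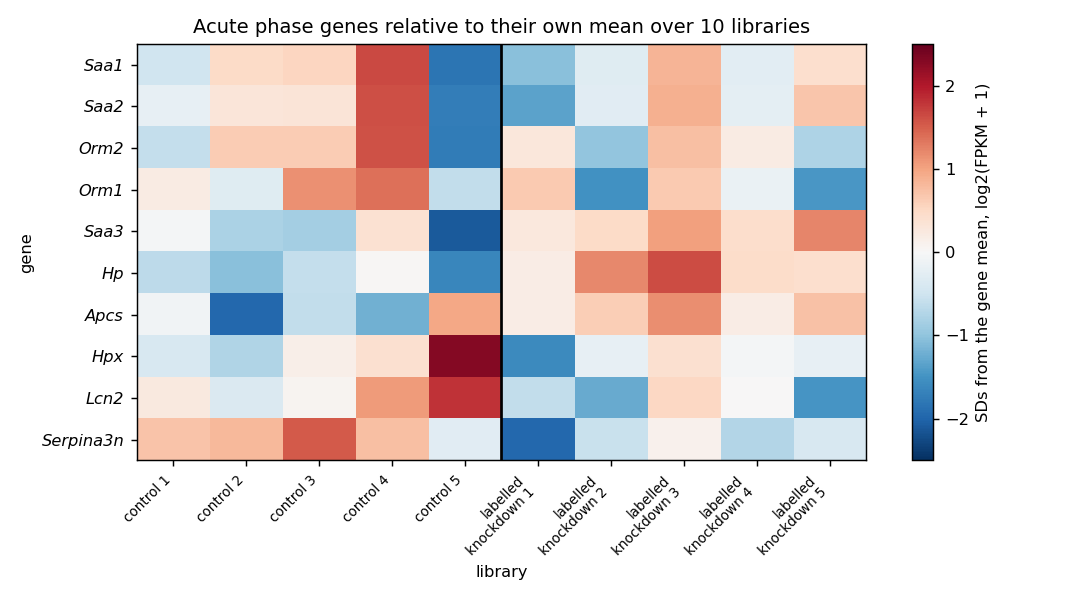
Heat map of the 10 acute phase genes (rows) in 10 libraries (columns, controls left of the line), coloured by SDs from the gene's own mean of log2(FPKM + 1). Control 5 is low for Saa1, Saa2, Orm2, Saa3 and Hp and high for Hpx and Lcn2; control 4 is high for Saa1, Saa2, Orm1 and Orm2.

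Upstream of these genes, transcripts of gp130 and of 2 proteins that act behind it were lower in the labelled knockdown livers. Of 22 listed ligands, receptors and signalling genes, 16 were tested; 3 were lower and 0 higher, and 14 of 16 had a log2 fold change below 0, with a median of -0.31. Of all 13471 tested genes, 9.65% were called lower and 7495 had a log2 fold change below 0. The 3 were Il6st, which encodes gp130, Stat3, and Ptpn11, which encodes the phosphatase SHP2 that binds gp130. Il6st stood at 10.02, 12.1, 13.5, 10.5 and 12.7 FPKM in control libraries 1 to 5 and at 7.497, 6.88, 6.76, 8.80 and 6.90 FPKM in labelled knockdown libraries 1 to 5. Every labelled knockdown library lay below every control, which held for 7.48% of tested genes in that direction. Il6st fell from 11.8 ± 1.48 to 7.37 ± 0.850 FPKM (log2 change -0.61 with SE 0.10; adjusted p = 0.00818 by limma). Stat3 fell from 11.3 ± 1.32 to 7.57 ± 0.739 FPKM (-0.52, limma adjusted p = 0.00944) and Ptpn11 from 8.89 ± 0.382 to 6.30 ± 0.425 FPKM (-0.44, limma adjusted p = 0.00684). The groups did not overlap for these 2 genes either, and all 3 calls held in each of the 10 leave-one-out fits and in all 11 alternative settings.

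Il6ra, the interleukin-6 receptor itself, averaged 3.63 ± 0.858 FPKM in controls and 2.40 ± 0.597 FPKM in the other group (limma adjusted p = 0.0721). It passed in 1 of the 10 leave-one-out fits, without control 5 (limma adjusted p = 0.0225), and in 1 of the 11 alternative settings. Socs3, a feedback inhibitor that STAT3 induces, stood at 10.02, 16.6, 14.0, 8.34 and 2.37 FPKM in control libraries 1 to 5 and at 4.56, 5.04, 4.69, 6.23 and 2.43 FPKM in labelled knockdown libraries 1 to 5. Of the controls, 4 lay above every labelled knockdown library and control 5 below all 5 of them. The Socs3 difference did not pass (log2 change -0.86 with SE 0.38, adjusted p = 0.141 by limma). Of the 10 leave-one-out fits it passed in 1, without control 5 (-1.24, limma adjusted p = 0.0134), and without control 2 the adjusted p was 0.288. Of the 11 alternative settings it passed in 2, array weights (-1.08, limma adjusted p = 0.0221) and replicate number as a block (0.0474). The ligand transcripts Il6, Il11, Osm and Lif did not pass the filter; Il6 averaged 0.0174 FPKM in controls and 0.0147 FPKM in the other group.

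**Figure D5:**
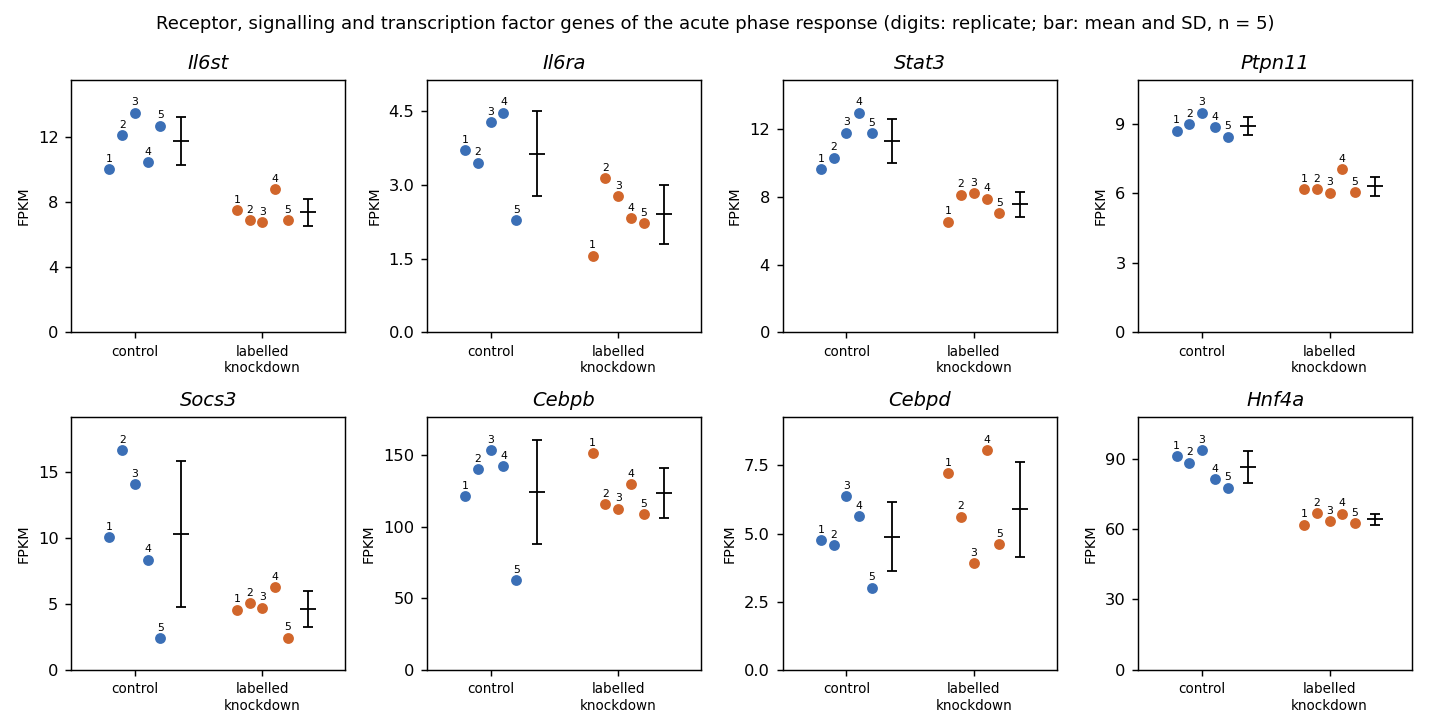
FPKM of 8 genes upstream of acute phase genes in each library, with control in blue, labelled knockdown in orange, replicate numbers as digits and bars for the mean and SD of 5 libraries. Il6st, Stat3, Ptpn11 and Hnf4a do not overlap between groups; control 5 is the lowest control for Il6ra, Socs3, Cebpb and Cebpd.

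Of 25 tested genes of interleukin-1, tumour necrosis factor and NF-kB signalling, 3 were lower and 0 higher (median log2 fold change -0.15), a share near the 9.65% of all tested genes called lower. They were Irak1, a kinase of the interleukin-1 receptor (-0.32, limma adjusted p = 0.0208), the tumour necrosis factor receptor Tnfrsf1b (-0.40, 0.0330) and Ikbkg, a subunit of the IkB kinase (-0.28, 0.0474). The calls held in 8, 2 and 2 of the 10 leave-one-out fits. With the length trend removed 1 of the 3 calls was left, and with coding lengths 0, where the adjusted p of Ikbkg was 0.262; with no FPKM minimum 1 was left. Without control 2 or without control 3 no gene of the list passed. The cytokines Il1b (1.69 ± 0.274 and 1.41 ± 0.332 FPKM) and Tnf (0.864 ± 0.149 and 1.06 ± 0.305 FPKM) did not pass.

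Among 16 transcription factors of the list, 5 were lower and 1 was higher (median -0.16), beside 9.65% and 7.13% of all tested genes. The lower calls numbered 2 with no FPKM minimum or the length trend removed, 3 after median-of-ratios scaling, and 2 to 6 without 1 library, the 2 arising without control 2, 3 or 4 or labelled knockdown 1 or 5. Hnf4a, a regulator of hepatocyte genes, fell from 86.5 ± 6.77 to 64.3 ± 2.37 FPKM (log2 change -0.42; adjusted p = 0.00944 by limma), a call that held in each of the 10 leave-one-out fits. Atf6, a sensor of endoplasmic reticulum stress, fell as well (-0.42, limma adjusted p = 0.0183), and Nr1h4, the bile acid receptor FXR, rose (0.37, 0.0248), its call holding in 5 of those fits. The other lower calls were Cebpa (log2 change -0.46, limma adjusted p = 0.0369), Nr3c1 (-0.34, 0.0283) and Creb3l3 (-0.42, 0.0477). Cebpb and Cebpd, the C/EBP genes most tied to inflammation, did not pass. Cebpb averaged 124 ± 36.3 FPKM in controls and 124 (123.5) ± 17.3 FPKM in the other group (limma adjusted p = 0.890), and Cebpd 4.88 ± 1.27 and 5.89 ± 1.74 FPKM (0.452). The sign of the Cebpb difference was below 0 with array weights, after the length trend was removed, and without control 5 or labelled knockdown 1.

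Of 27 other positive acute phase genes tested, 5 were lower and 0 higher, beside 9.65% and 7.13% of all tested genes, with a median log2 fold change of -0.24. The 5 were Steap4, Il1rn, C3, Fga and Cp. The lower calls numbered 0 without control 3 or with no FPKM minimum, and 2 without control 1, 2 or 4, after median-of-ratios scaling, or with the length trend removed. Steap4, a metalloreductase induced by inflammation, fell from 73.3 ± 16.2 to 42.4 ± 10.5 FPKM (log2 change -0.78; adjusted p = 0.0204 by limma), and Il1rn, the interleukin-1 receptor antagonist, from 4.36 ± 0.380 to 2.91 ± 0.685 FPKM (-0.47, 0.0229); each call held in 9 of the 10 leave-one-out fits. Both were lost without control 3 (limma adjusted p = 0.0511 and 0.0557). Complement C3 fell (-0.37, limma adjusted p = 0.0404), but passed in 1 of those fits and not after the length trend was removed. Fgb, a fibrinogen chain (700.5 ± 41.7 and 583 ± 83.2 FPKM, limma adjusted p = 0.108), Crp (69.5 ± 16.3 and 66.0 ± 12.9 FPKM, 0.859) and Saa4, the constitutive serum amyloid A (42.4 ± 10.6 and 38.7 ± 3.73 FPKM, 0.706), did not pass.

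Of 16 tested negative acute phase genes, which the liver lowers in inflammation, 1 was higher and 1 lower, beside 7.13% and 9.65% of all tested genes. They showed no shared direction, with 9 log2 fold changes above 0 and 7 below (median 0.07). Ttr, the thyroxine carrier transthyretin, rose from 2714 ± 208 to 3569 ± 253 FPKM (log2 change 0.40; adjusted p = 0.0268 by limma), a call that held in 5 of the 10 leave-one-out fits. Its adjusted p was 0.204 with no FPKM minimum, 0.0732 with the length trend removed, and 0.0853 after quantile normalization, where its log2 change was 0.20. Apom, an apolipoprotein of HDL, fell from 132 ± 9.72 to 82.3 ± 20.6 FPKM (-0.71, 0.0133), and its call held in all 10. Alb, serum albumin, stood at 28429 ± 1857 and 25337 ± 2366 FPKM (limma adjusted p = 0.406).

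Transcript length also moved with the groups: per doubling of length, a library's values departed from the gene means by 0.0189 to 0.0463 on the log2 scale in controls and by -0.0586 to -0.00697 in labelled knockdown libraries, without overlap. With this trend removed, the log2 fold change was 0.74 for Saa3 (limma adjusted p = 0.0436), -0.62 for Serpina3n (0.0453) and 0.29 for Hp (0.102), so Hp lost its call and the other pair kept theirs. With coding transcripts as the length, an alternative chosen after seeing the data, the adjusted p of Serpina3n was 0.0511. Il6st, Stat3 and Ptpn11 kept their calls (-0.49, -0.41 and -0.32, with limma adjusted p of 0.0123, 0.0293 and 0.0142).

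Hepatocyte markers summed to 40386 to 45460 (45460.0) FPKM in controls and 36479 to 44767 FPKM in labelled knockdown libraries. Most of this sum was Alb, at means of 28429 and 25337 FPKM, and markers of other tissues were not compared. Of 12 hepatocyte markers 1 was higher and 3 lower, beside 7.13% and 9.65% of all tested genes. The lower ones were Apob (-0.54), Cps1 (-0.71) and Ass1 (-0.64), with limma adjusted p from 0.00941 to 0.00944. Macrophage Adgre1 (-0.95, limma adjusted p = 0.00684) and Cd5l (-1.01, 0.0160) were lower. Of 10 stellate cell markers 4 were lower, among them Hgf, Reln and Lum, of 8 tested endothelial markers 1 was lower (Pecam1), and of 5 tested cholangiocyte markers 0 were called, all beside 9.65% of tested genes called lower. Without 1 library the stellate count ran from 2 to 5 and the endothelial count from 0 to 2. Labelled knockdown 5 was the lowest of the 10 libraries for 6 of 10 stellate, 5 of 5 cholangiocyte and 7 of 13 macrophage markers tested. It was the lowest for 0 of 8 endothelial and 1 of 12 hepatocyte markers. Control 1 was the highest for 5 of 5 cholangiocyte and 6 of 13 macrophage markers. The part of these cell markers in the acute phase results was not tested.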

How the data were processed

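Libraries of poly(A) RNA with dUTP strand marking were made from 10 liver samples, per the labels' protocols, and the authors deposited 1 table of FPKM per gene. Per the submitters' processing notes, the authors used cutadapt 1.9, HISAT2 2.0.4 and StringTie 1.3.4d and named GRCh38, a human build, although the gene identifiers are mouse Ensembl ones; how strand was counted was not stated. The deposited table also holds the authors' fold ratio, log2 fold change, p-value and q-value for each gene, from a test that no label or header names. Depth is unknown. Many candidate read steps were tried on the low values of single-transcript genes, scaled by transcript length. At the best step of each library, 12.9% to 14.9% of these values were whole multiples at a tolerance of 0.02, so reads were not recovered. All 10 sample columns were used, and no 2 libraries held identical values.

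Genes at 0.5 FPKM or more in at least 5 libraries (13471) were tested on log2(FPKM + 1) with limma 3.58.1 (R 4.3.3, variance trend), adjusted by Benjamini-Hochberg over all of them, at a threshold of 0.05. Scripts were tested on simulated data. Ratios within a library used exact permutation tests adjusted over 4 ratios, and member pairs used 100000 permutations adjusted over 45 pairs. Intervals are at 95%. Alternatives changed the pseudocount, filter, scaling, variance model, replicate block and length trend, or left out each library. Named genes are all members, up to 3 called genes with the smallest adjusted p of each of 12 lists, a set of regulators and reference acute phase genes always named (Saa4, Orm3, Crp, Fgb, Alb, Ttr, Il6ra, Il6st, Stat3, Socs3, Cebpb, Cebpd), and the 5 genes most correlated with the members over libraries; Fga, Cp, Il6, Il1b, Tnf, Serpina3k, Serpina3m, Ngp, Camp, Ltf and further list members were named after their values were seen. The members and lists were chosen with earlier results of these data known. Promoters came from RefSeq (GRCm38.p6) and transcripts from GENCODE M21.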

Additional observations from a re-analysis of the deposited data

Results flagged for a closer look

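Chance gives about 1 in 20 for independent groups, but the groups checked share the same 10 libraries, so the count is a description only. Of 100 groups of 5 libraries checked, 10 held 1 library far from the other 4. Control 5 accounted for 5 of them: its Hp to Hpx ratio was 0.258 (others 0.442 to 0.483), Cebpb was 62.4 FPKM (121 to 153), Crp 41.8 FPKM (71.1 to 84.1), Tnfrsf1b 10.3 FPKM (13.6 to 14.3) and Cps1 520.2 FPKM (355 to 385). Labelled knockdown 4 accounted for 4: Adgre1 was 4.73 FPKM (2.33 to 2.72), Atf6 12.7 FPKM (8.89 to 9.66), Ptpn11 7.05 FPKM (6.03 to 6.18) and Nr1h4 37.2 FPKM (44.96 to 47.5). Control 3 held Hgf at 1.36 FPKM (1.003 to 1.04).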

How the results depend on the processing

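Against 960 genes higher and 1300 lower, the counts were 511 and 682 with no FPKM minimum, and 442 to 966 and 549 to 1736 without 1 library. Genes lower numbered 2047 with array weights, 720 with the length trend removed and 670 with coding lengths, an alternative chosen after seeing the data. The split was 1212 higher and 1020 lower after median-of-ratios scaling and 1165 and 1181 after quantile normalization. Of the 2 acute phase genes called higher, 0 were called with no FPKM minimum or the replicate block, 1 after median-of-ratios scaling, quantile normalization or either removal of the length trend, and 0 to 2 without 1 library. The 1 called lower became 0 with no FPKM minimum, median-of-ratios scaling or coding lengths, and 0 to 1 without 1 library. With replicate number as a block, 769 genes were higher and 986 lower, and the ratio differences of 0.96 (Saa3 to Saa1) and 0.53 (Hp to Hpx) each had an exact adjusted p of 0.125, in a design where 5 pairs allow no p below 0.0625 and so no call. Under the block Socs3 passed (limma adjusted p = 0.0474) and Ttr did not (0.0786). Correlations of same-numbered samples were 0.114, 0.0177, 0.0845, -0.0145 and 0.0498, and 1 of 5 matched its own number best, so the numbers were not taken to pair samples. Without 1 library the log2 ratio difference ran from 0.87 to 1.16 for Saa3 to Saa1, 0.36 to 0.58 for Hp to Hpx, -0.056 to 0.092 for Saa2 to Saa1 and -0.10 to 0.12 for Orm2 to Orm1. Over the same fits the log2 fold change changed sign for Saa1 (-0.37 to 0.15), Saa2 (-0.38 to 0.18), Orm2 (-0.23 to 0.057), Saa4 (-0.25 to 0.013), Crp (-0.23 to 0.028), Cebpb (-0.18 to 0.14) and Lgals3 (-0.093 to 0.26), none of them called. Array weights gave -0.16 for Cebpb and -0.018 for Cebpd, and removing the length trend gave -0.0024 for Cebpb. The cause of these changes was not tested. Depth is unknown, so precision rests on the spread of 5 samples a group.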

Other observations

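Among receptors and binding partners of the acute phase proteins, 12 of 18 genes were tested, 1 was higher and 2 were lower, beside 7.13% and 9.65% of all tested genes. The lower calls numbered 0 to 3 without 1 library, with 0 without control 3 and without labelled knockdown 5. Labelled knockdown 5 was the lowest of the 10 libraries for 10 of the 12 genes. Apoa2, an apolipoprotein of the HDL on which serum amyloid A travels, stood at 3840 ± 616 FPKM in controls and 6047 ± 638 FPKM in the labelled knockdown livers (SD, n = 5 each; log2 fold change 0.66, limma adjusted p = 0.0146). Its call was lost with no FPKM minimum (adjusted p = 0.128) and after quantile normalization (0.40, adjusted p = 0.0765). Hmox1, which breaks down heme, fell from 45.9 ± 9.75 to 29.7 ± 5.45 FPKM (-0.60, limma adjusted p = 0.0242). Lrp1, the receptor for heme bound to hemopexin, fell from 29.4 ± 2.41 to 22.3 ± 3.72 FPKM (-0.39, limma adjusted p = 0.0329). The Lrp1 call held in 4 of the 10 leave-one-out fits and not with the length trend removed, and the Hmox1 call was lost without control 3 or labelled knockdown 5.

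In the authors' deposited table the fold ratio was 1.28 for Hp (q = 0.0121), 1.73 for Saa3 (q = 0.0184) and 0.650 for Serpina3n (q = 0.0329). That deposited table marks 398 genes as significant and none of the 10 acute phase genes.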
